A study of Rattus norvegicus with 17 samples.

Results

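The 10 regulators of mitochondrial biogenesis described here were measured by RNA sequencing in gastrocnemius, the large calf muscle, of rats. They are Ppargc1a, Ppargc1b, Esrra, Nrf1, Gabpa, Tfam, Tfb1m, Tfb2m, Polrmt and Ppara, taken by gene name from a deposited table of 32495 named entries. Each of the 10 names stood on the table, and all 10 were among the 11856 entries with enough counts to be tested. The groups were healthy rats (5 samples), rats bearing a tumor (5 samples) and rats bearing a tumor and given chemotherapy (6 samples), and every group was kept on the control diet. The labels name neither the tumor nor the drug, and they give no strain, sex, age or time. They do not say which libraries came from separate animals, so p-values measure the spread between these samples, which may be technical. The series asked how muscle differs between tumor-bearing, chemotherapy-treated and healthy rats.

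Most mitochondrial proteins are encoded in the nucleus, and muscle builds mitochondria by switching on those nuclear genes together with the copying and transcription of mitochondrial DNA. The coactivators encoded by Ppargc1a and Ppargc1b bind no DNA themselves; they dock on factors such as the estrogen-related receptor alpha (Esrra), the fatty acid receptor PPAR alpha (Ppara), nuclear respiratory factor 1 (Nrf1) and the DNA-binding subunit of GABP (Gabpa, also called nuclear respiratory factor 2). These factors activate genes of the respiratory chain and also Tfam, Tfb1m, Tfb2m and Polrmt, whose products work inside the mitochondrion. In muscle, Ppargc1a is known for its induction by endurance exercise and for its tie to oxidative fibers.

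The stretch around the transcription start is shown for the 3 regulators that passed the test in a comparison below (Gabpa, Tfam and Tfb2m) and for Esrra, which had a negative fold change there. Each runs from 250 bases before to 30 bases after the start, 5′ to 3′ on the strand of the gene, from RefSeq on build GRCr8; capitals mark GCATGCG, the core letters of the Nrf1 motif, and CGGAAG, the core letters of the GABP motif, on either strand. The positions are chr11:37375014-37375293 (plus strand), chr20:17355123-17355402 (plus strand), chr13:93828565-93828844 (minus strand) and chr1:213543276-213543555 (minus strand).
Gabpa: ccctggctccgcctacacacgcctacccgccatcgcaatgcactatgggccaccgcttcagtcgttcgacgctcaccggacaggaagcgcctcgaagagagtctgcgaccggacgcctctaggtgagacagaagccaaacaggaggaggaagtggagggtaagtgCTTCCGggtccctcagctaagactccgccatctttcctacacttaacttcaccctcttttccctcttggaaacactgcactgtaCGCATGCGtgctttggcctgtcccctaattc
Tfam: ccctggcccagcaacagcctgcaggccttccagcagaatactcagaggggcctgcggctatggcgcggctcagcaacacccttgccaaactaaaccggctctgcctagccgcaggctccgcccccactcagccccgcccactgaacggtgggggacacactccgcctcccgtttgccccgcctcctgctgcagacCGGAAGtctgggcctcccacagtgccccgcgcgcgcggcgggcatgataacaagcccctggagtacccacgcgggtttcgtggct
Tfb2m: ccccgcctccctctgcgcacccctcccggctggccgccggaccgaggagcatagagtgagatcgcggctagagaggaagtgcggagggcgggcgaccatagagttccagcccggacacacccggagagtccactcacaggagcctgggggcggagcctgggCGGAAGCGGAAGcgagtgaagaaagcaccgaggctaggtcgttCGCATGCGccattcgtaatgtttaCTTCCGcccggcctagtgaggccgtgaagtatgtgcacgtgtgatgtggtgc
Esrra: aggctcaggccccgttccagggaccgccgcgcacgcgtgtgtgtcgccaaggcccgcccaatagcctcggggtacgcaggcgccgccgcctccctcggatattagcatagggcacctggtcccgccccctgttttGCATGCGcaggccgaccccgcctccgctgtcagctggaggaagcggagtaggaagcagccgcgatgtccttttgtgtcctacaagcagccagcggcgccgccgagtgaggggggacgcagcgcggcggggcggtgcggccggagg

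The Gabpa and Tfb2m windows hold both motifs, the Tfam window holds the GABP letters and the Esrra window holds the Nrf1 letters. All 10 members matched an entry in the promoter table. Both strands were searched. GCATGCG was found in 4 of the 10 windows, those of Esrra, Ppara, Gabpa and Tfb2m, and in 3.43% of all 27457 promoters of the same length. In Gabpa, Tfb2m and Ppara the motif overlaps its own copy on the other strand. CGGAAG was found in 4 of the 10, those of Polrmt, Gabpa, Tfb2m and Tfam, and in 16.6% of all promoters. AAGGTCA, the core letters bound by estrogen-related receptors, was in 0 of the 10 windows and in 4.14% of all promoters. The motifs and the length of the window were chosen after the sequences had been read, and a match describes letters, not binding.

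The libraries held from 3020821 to 15719080 counts on named entries, and the members held from 25 counts (Ppara in library 16) to 2012 counts (Esrra in library 4) in a library. Libraries 11 and 12 of the chemotherapy group differed less than any other of the 41 pairs compared within a group and were summed to 1 sample. Alignment names in the table end in MB or VM, with no meaning given. MB stands on 4 of 5 healthy samples, 0 of 5 tumor samples and 1 of 6 chemotherapy samples, so the suffix and the healthy group are largely confounded. The first principal component of log2 CPM (counts scaled to library size) took 48.4% of the variance, and healthy libraries 1, 3 and 4 stood farthest out at one end. Skeletal muscle markers summed to between 215786 and 307451 CPM in healthy, 173579 and 248215 CPM in tumor, and 174666 and 215666 CPM in chemotherapy samples. Of 6 heart muscle markers, Nppa, Nppb and Myl7 were at 0 in each group and Myh6 averaged 69.3, 125 and 78.7 CPM in healthy, tumor and chemotherapy samples; the 6 together summed to between 33.8 and 157 CPM in a sample. Of 5 brown fat markers, Ucp1 was at 0 in each group, Cox8b averaged 429, 376 and 403 CPM, and Cidea averaged between 0.667 and 1.16 CPM. Adipocyte markers summed to between 53.8 and 142 CPM in healthy samples, 90.6 and 242 CPM in tumor samples, and 112 and 552 CPM in chemotherapy samples.

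Some marker genes also differed between groups. In chemotherapy against healthy samples, 2 of 8 skeletal muscle markers fell (Ckm and Acta1), 1 of 6 adipocyte markers rose (Fabp4), and of 5 endothelial markers Emcn rose and Tie1 fell. Of all entries tested, 13.7% passed in this comparison, 7.3% higher and 6.41% lower. All 6 adipocyte markers tested had positive fold changes against healthy, with medians of 0.74 in tumor and 1.75 in chemotherapy samples. In each comparison 3 of 6 had an unadjusted p under 0.05 by edgeR, and 0 passed in tumor samples. Red blood cell markers summed to between 440 and 1379 CPM in healthy, 227 and 588 CPM in tumor and 124 and 917 CPM in chemotherapy samples. All 5 had negative fold changes in both comparisons with healthy samples (medians of -1.06 and -0.88), and 0 passed by edgeR, with 4 of 5 at an unadjusted p under 0.05 in each. Slow fiber markers summed to between 6719 and 16062 CPM in healthy, 9612 and 18497 CPM in tumor and 7739 and 12632 CPM in chemotherapy samples. Of these 11 markers, 10 had positive values in tumor against healthy (median 0.68) and all 11 had negative values in chemotherapy against tumor (median -0.46), and 0 passed by edgeR, with 8 and 5 at an unadjusted p under 0.05. Macrophage and leukocyte markers had medians of -0.47 in tumor and -0.48 in chemotherapy against healthy samples. In each, 0 of 7 passed the test and 3 of 7 had an unadjusted p under 0.05. All 7 values were negative in tumor samples, and 6 were in chemotherapy samples. The other, Ptprc, was at 9.56 ± 3.52 CPM in healthy and 20.8 ± 21.2 CPM in chemotherapy samples. Its log2 fold change was 1.08 ± 0.43 (adjusted p = 0.0837, edgeR). Of all entries, 18.0% had an unadjusted p under 0.05 in tumor against healthy, 36.4% in chemotherapy against healthy and 5.78% in chemotherapy against tumor. The part of these shifts in the results below was not tested. In whole muscle, fewer cells of a type and less RNA per cell cannot be told apart.

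**Figure D1:**
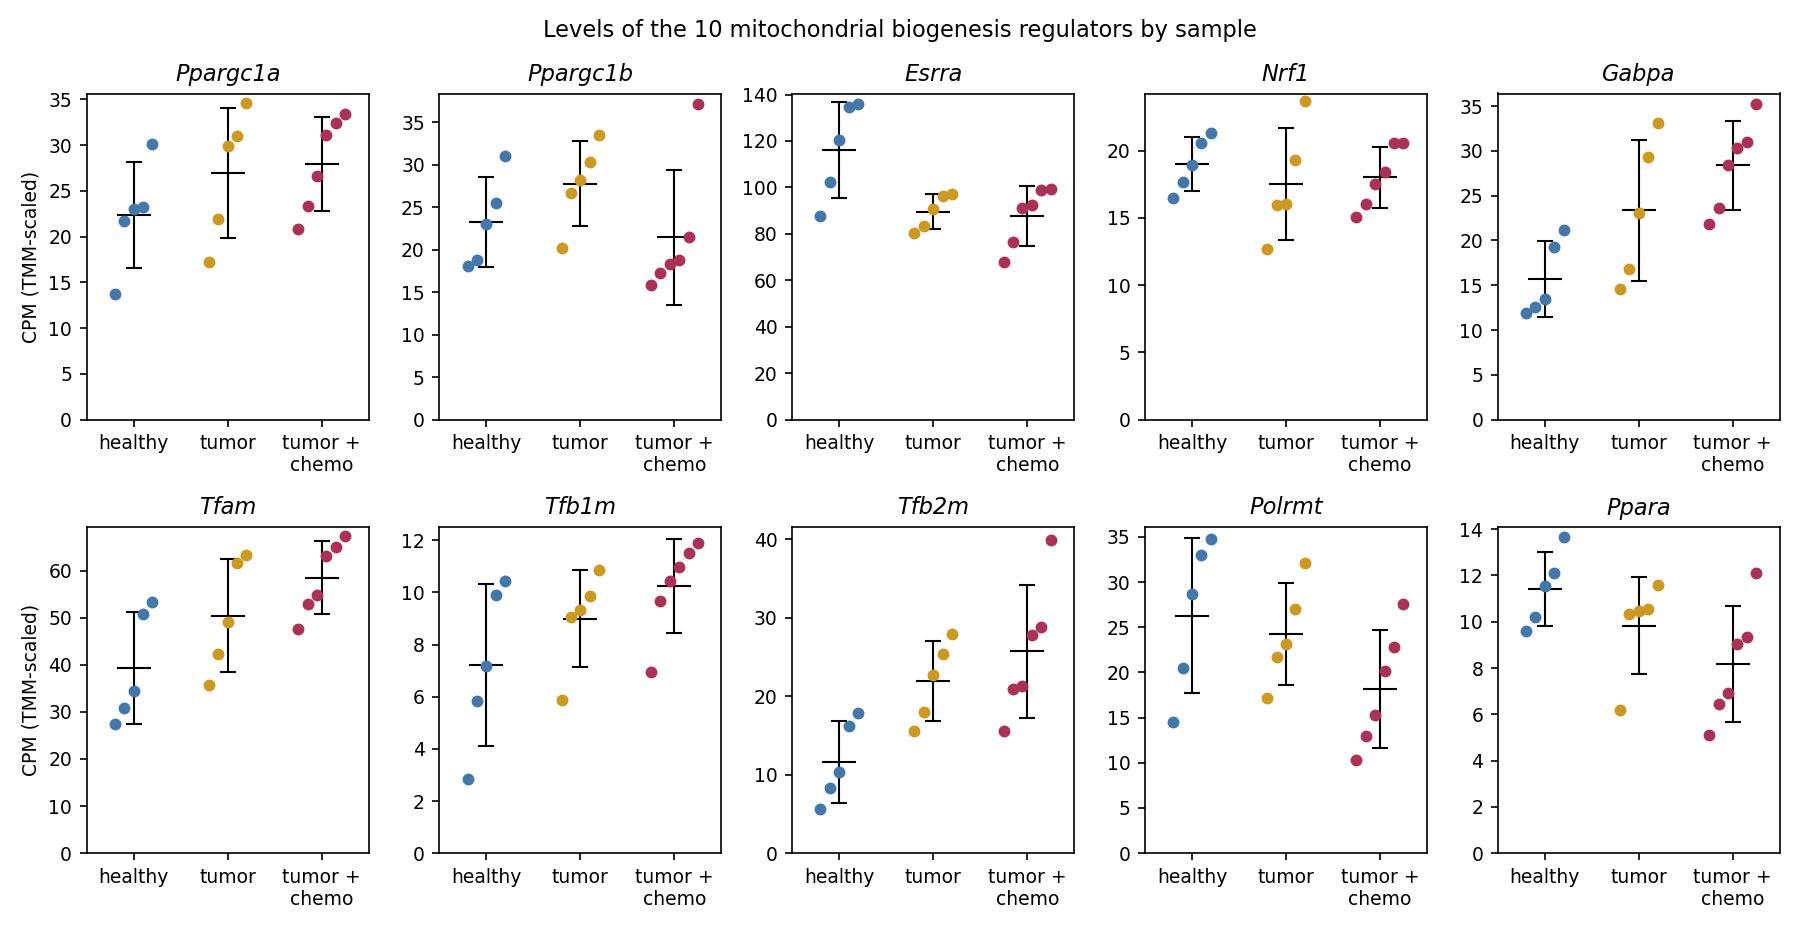
CPM of the 10 regulators in each sample (points) with group means (bars) and SD (lines), for healthy, tumor and chemotherapy samples; CPM is not scaled by transcript length, so heights are compared within a gene only. Gabpa is the member whose chemotherapy and healthy samples do not overlap, and library 16 stands alone for Ppargc1b.

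Neither coactivator passed the test in any of the 3 comparisons. Ppargc1a averaged 22.4 ± 5.82 CPM (SD, n = 5) in healthy, 27.0 ± 7.11 CPM (n = 5) in tumor and 28.0 ± 5.17 CPM (n = 6) in chemotherapy samples, and the ranges of 13.8 to 30.1, 17.3 to 34.6 and 20.8 to 33.4 CPM overlapped. The log2 fold change of Ppargc1a against healthy was 0.27 ± 0.21 (SE) in tumor and 0.32 ± 0.20 in chemotherapy samples, with 95% intervals of -0.17 to 0.71 and -0.11 to 0.75 (adjusted p = 0.471 and 0.263, edgeR quasi-likelihood test). These intervals leave room for a rise of more than 1.5-fold and for a small fall.

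Ppargc1b, the close relative that shares the partners of Ppargc1a, averaged 23.3 ± 5.28 CPM in healthy, 27.8 ± 4.98 CPM in tumor and 21.5 ± 7.93 CPM in chemotherapy samples. In the chemotherapy group library 16 stood at 37.2 CPM, and the other 5 samples ran from 15.8 to 21.5 CPM. No comparison passed the test; the lowest unadjusted p was 0.0840, for chemotherapy against tumor, where the log2 fold change was -0.38 ± 0.21 (adjusted p = 0.778, edgeR). Without library 16 this value was -0.60, and that against healthy went from -0.13 to -0.35; neither passed.

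Among the receptors, Esrra had lower means in both groups of tumor-bearing rats without passing the test. Esrra, an orphan receptor that works with both coactivators on respiratory genes, was at 134, 87.9, 120, 136 and 102 CPM in healthy libraries 1 to 5. The tumor libraries 6 to 10 gave 83.3, 80.5, 96.5, 90.5 and 97.0 CPM, and the chemotherapy samples ran from 68.1 CPM over a median of 91.8 CPM to 99.5 CPM. All 11 tumor-bearing samples lay below the healthy median of 120 CPM, but healthy library 2 lay among them, so the groups overlapped. The log2 fold change against healthy was -0.38 ± 0.14 in tumor (adjusted p = 0.242) and -0.41 ± 0.14 in chemotherapy samples (adjusted p = 0.0518), both by edgeR. With DESeq2, with limma-voom, and with only entries averaging at least 5 CPM tested, the chemotherapy value was past the threshold (adjusted p = 0.0273, 0.0468 and 0.0475). It was also past it without healthy library 2 or 5, tumor library 8 or chemotherapy sample 11, and leaving out 1 sample gave -0.50 to -0.34. The value shrank to -0.09 with a surrogate variable from CPM and did not pass in the other settings.

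Ppara, the receptor that fatty acids activate and that turns on their oxidation, averaged 11.4 ± 1.60 CPM in healthy, 9.83 ± 2.09 CPM in tumor and 8.16 ± 2.51 CPM in chemotherapy samples. Of the 6 chemotherapy samples, 5 lay below every healthy sample, while library 13 at 12.1 CPM lay inside the healthy range of 9.61 to 13.7 CPM. The log2 fold change of -0.51 ± 0.21 against healthy did not pass the test (adjusted p = 0.0903, edgeR).

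Of the DNA-binding factors, Gabpa was higher with chemotherapy than in healthy muscle, and Nrf1 did not pass the test in any comparison. Gabpa was at 13.4, 21.1, 11.8, 12.6 and 19.3 CPM in healthy libraries 1 to 5 and at 33.1, 29.3, 14.6, 23.0 and 16.8 CPM in tumor libraries 6 to 10. The chemotherapy samples gave 21.8 CPM at the lowest, 29.4 CPM at the median and 35.2 CPM at the highest. The lowest chemotherapy sample stood just above the highest healthy one, so these groups did not overlap, which held for 4.0% of all entries tested; the tumor samples spanned both. Gabpa was 1.82-fold higher with chemotherapy than in healthy samples (log2 fold change 0.87 ± 0.22, adjusted p = 0.0289, edgeR) and 1.51-fold in tumor samples, which did not pass (0.59 ± 0.23, adjusted p = 0.242).

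Nrf1, which drives many respiratory and mitochondrial genes, averaged 19.0 ± 2.01 CPM in healthy, 17.5 ± 4.16 CPM in tumor and 18.0 ± 2.27 CPM in chemotherapy samples. Its log2 fold change in chemotherapy against healthy samples was -0.08 ± 0.16, with a 95% interval of -0.41 to 0.25 (adjusted p = 0.732, edgeR).

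Within the mitochondrial transcription machinery, Tfam and Tfb2m were higher with chemotherapy than in healthy muscle. Tfam, the protein that packages mitochondrial DNA and opens its promoters, was at 30.8, 53.3, 34.4, 27.3 and 50.8 CPM in healthy libraries 1 to 5. The tumor libraries 6 to 10 gave 61.6, 49.2, 35.6, 63.4 and 42.4 CPM, and the chemotherapy samples ran from 47.6 CPM over a median of 59.0 CPM to 67.2 CPM. Healthy libraries 2 and 5 reached into the chemotherapy range, and the other 3 healthy libraries lay below it. Tfam was 1.49-fold higher with chemotherapy than in healthy samples (log2 fold change 0.58 ± 0.19, adjusted p = 0.0495, edgeR), just inside the threshold.

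Tfb2m, the factor that melts the promoter so that the polymerase can start, had the largest fold change of the 10. It was at 10.4, 16.2, 8.31, 5.60 and 17.9 CPM in healthy libraries 1 to 5 and at 28.0, 22.8, 15.6, 25.4 and 18.0 CPM in tumor libraries 6 to 10. The chemotherapy samples ran from 15.6 CPM over a median of 24.6 CPM to 39.9 CPM, and 5 of the 6 lay above every healthy sample. Tfb2m was 2.22-fold higher with chemotherapy than in healthy samples (log2 fold change 1.15 ± 0.28, adjusted p = 0.0280, edgeR). In tumor samples the fold was 1.92 (0.94 ± 0.29), and although 4 of 5 samples lay above every healthy sample it did not pass (adjusted p = 0.211).

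Tfb1m is the relative of Tfb2m that methylates mitochondrial ribosomal RNA. It averaged 7.23 ± 3.11 CPM in healthy, 9.00 ± 1.87 CPM in tumor and 10.2 ± 1.80 CPM in chemotherapy samples. Its log2 fold change in chemotherapy against healthy samples was 0.53 ± 0.27 (adjusted p = 0.164, edgeR). Polrmt, the mitochondrial RNA polymerase that Tfam and Tfb2m serve, had a negative fold change. It averaged 26.3 ± 8.57 CPM in healthy, 24.3 ± 5.67 CPM in tumor and 18.2 ± 6.49 CPM in chemotherapy samples. All 6 chemotherapy samples lay below the healthy median of 28.7 CPM, and the log2 fold change of -0.51 ± 0.25 against healthy did not pass (adjusted p = 0.137, edgeR). Leaving out 1 sample gave -0.69 to -0.41, and Polrmt passed in 2 of these 16 fits. Its sign was reversed in 2 of 14 other settings.

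**Figure D2:**
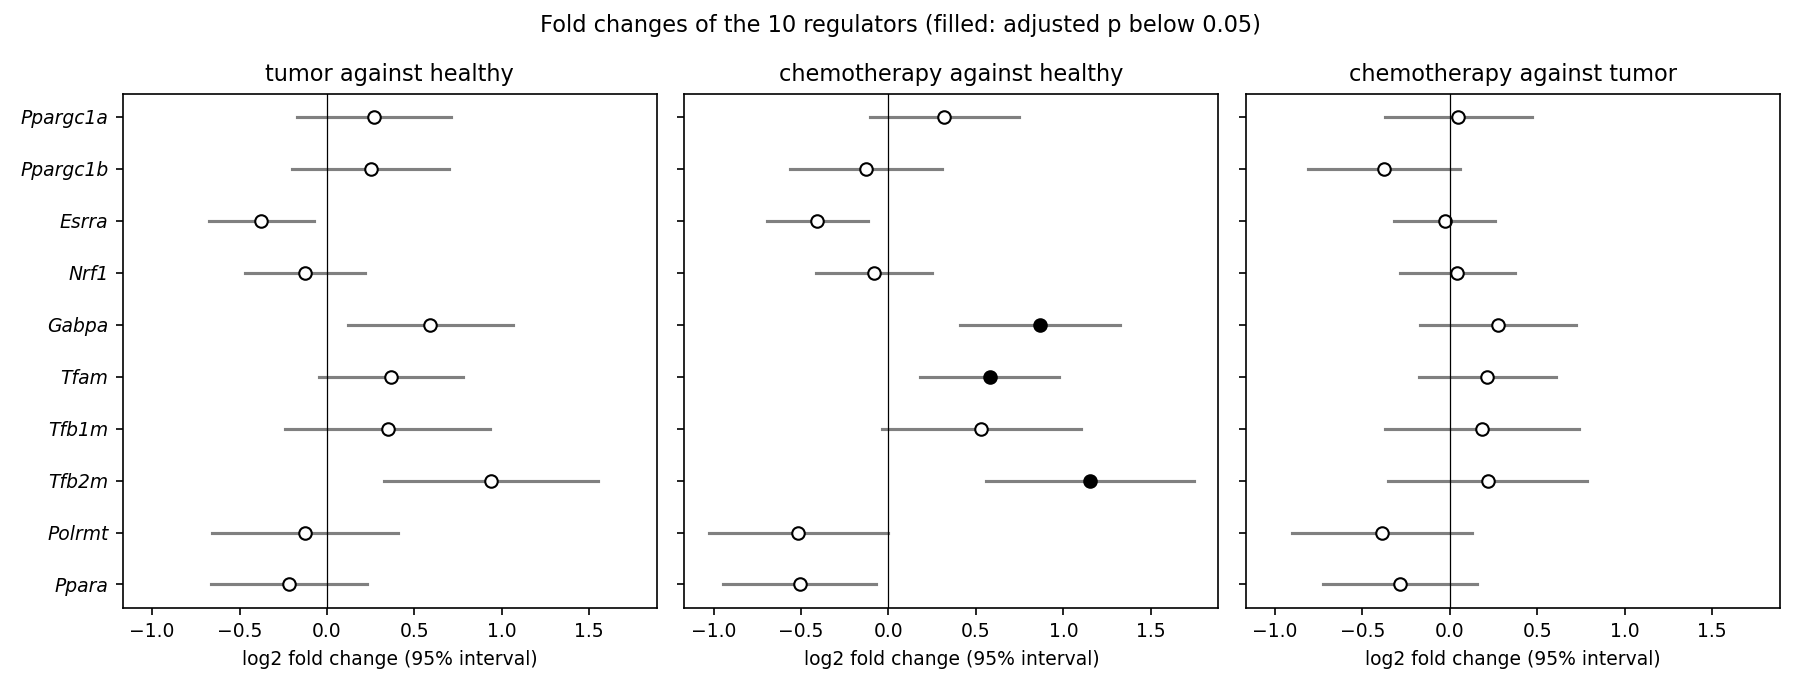
Log2 fold change of each regulator with its 95% interval in the 3 comparisons; filled points passed an adjusted p of 0.05. Filled points stand only at Gabpa, Tfam and Tfb2m, in chemotherapy against healthy.

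Counted over the 10 regulators, the comparison of chemotherapy with healthy samples called 3 higher (Gabpa, Tfam and Tfb2m), 0 lower, and left 7 that did not pass. Of all entries tested, 13.7% passed in this comparison, 7.3% higher and 6.41% lower. At an unadjusted p under 0.05 stood 6 members, beside 36.4% of all entries. The median log2 fold change of the members was 0.12, beside -0.02 for all entries. All 3 calls were lost, with every other call in the table, when healthy library 1, 3 or 4 or chemotherapy library 13, 14 or 15 was left out, and also with the suffix as a term, with a surrogate variable from CPM, within VM libraries (1 healthy sample) and within MB libraries (1 chemotherapy sample), where the lone sample is assumed to vary like the others. Leaving out 1 sample gave log2 values of 0.77 to 0.97 for Gabpa, 0.46 to 0.70 for Tfam and 0.95 to 1.38 for Tfb2m. With the suffix as a term they were 0.61, 0.33 and 0.66. With healthy libraries 1, 3 and 4 all left out, the log2 fold changes were 0.48 for Gabpa, 0.17 for Tfam and 0.56 for Tfb2m (adjusted p = 0.899, 0.930 and 0.899, edgeR).

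In tumor against healthy samples, 0 of the 10 passed by edgeR, as did 0.0% of all entries. At an unadjusted p under 0.05 stood 3 members, Esrra, Gabpa and Tfb2m, beside 18.0% of all entries; limma-voom called 0 members, and DESeq2 called 0 while giving an adjusted p to Esrra alone. In chemotherapy against tumor samples, 0 of the 10 passed by edgeR, as did 0.0% of all entries, and 0 passed by DESeq2 or limma-voom. At an unadjusted p under 0.05 stood 0 members, beside 5.78% of all entries. The members' log2 fold changes there ran from -0.39 for Polrmt to 0.28 for Gabpa. Of the 10, 6 were positive and 4 negative, with Tfb1m at 0.18, Tfam at 0.21 and Tfb2m at 0.22. Both comparisons with healthy samples share those 5 samples, and Gabpa, Tfam and Tfb2m had a positive value in each.

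**Figure D3:**
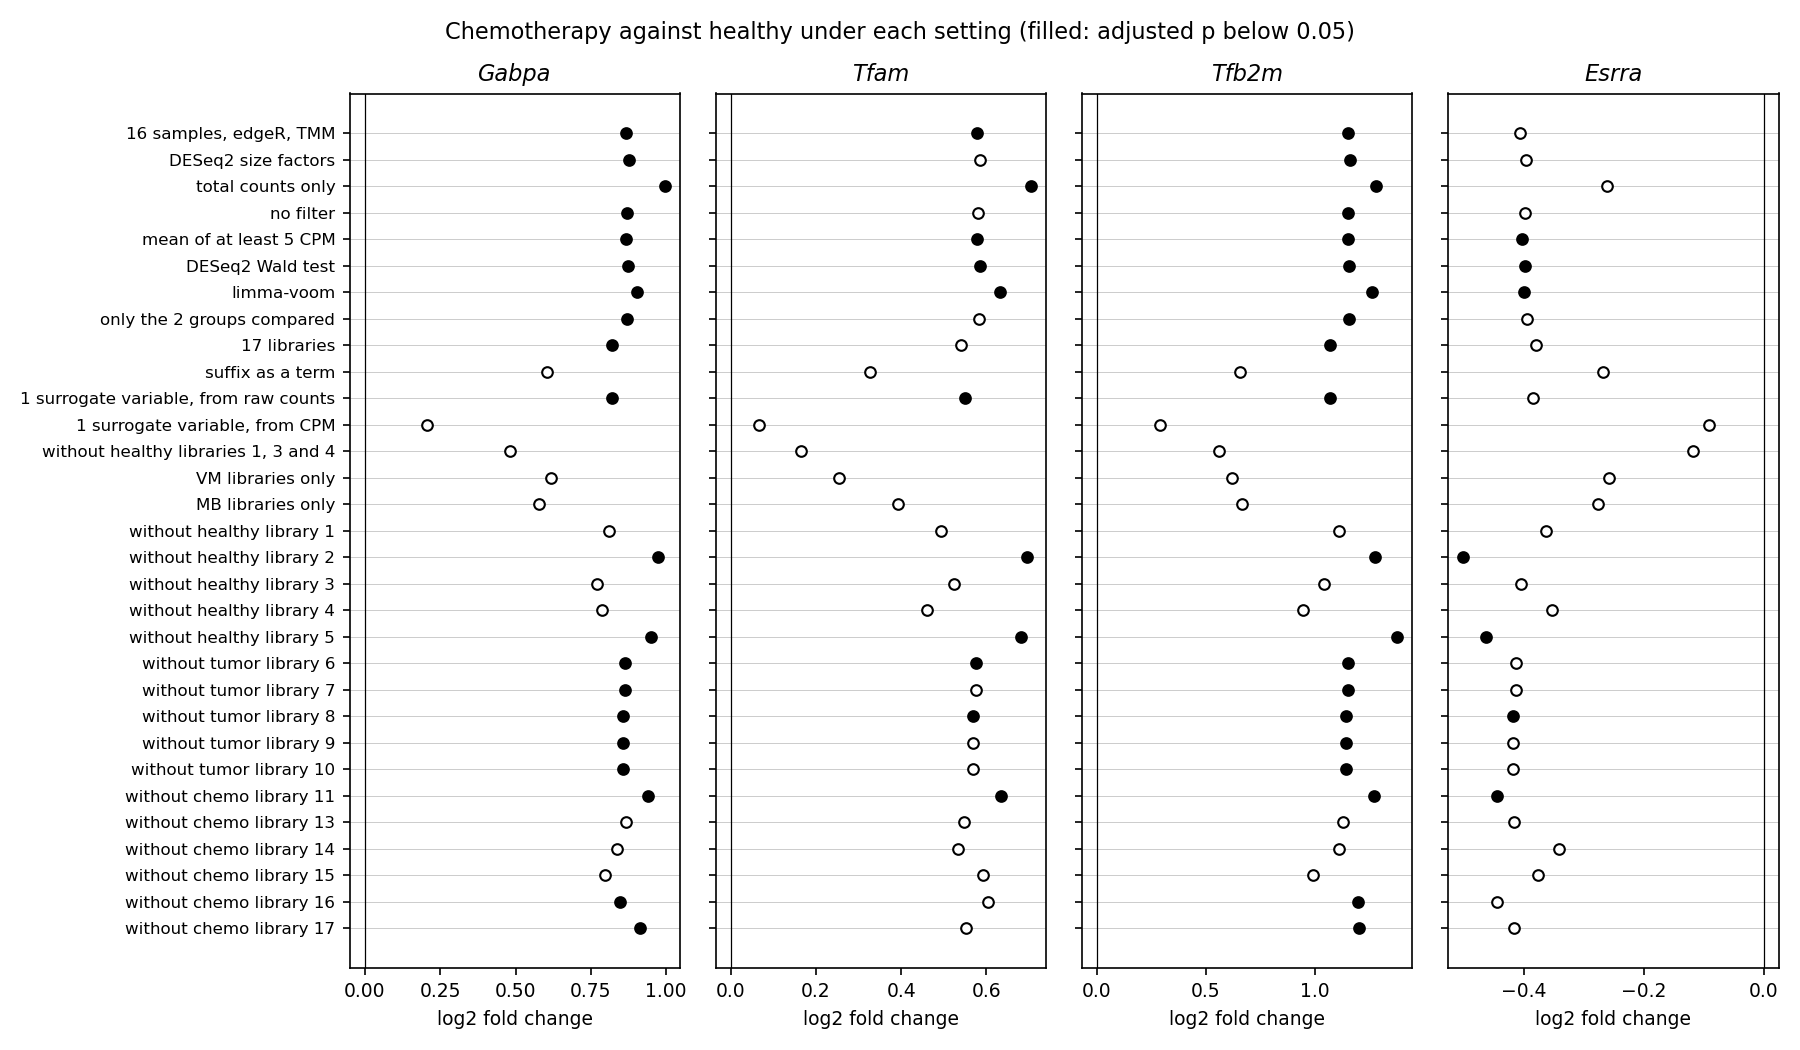
Log2 fold change of Gabpa, Tfam, Tfb2m and Esrra, chemotherapy against healthy, under each processing setting (rows); filled points passed an adjusted p of 0.05, and the horizontal scales differ between genes. Values shrink most with a surrogate variable from CPM and without healthy libraries 1, 3 and 4.

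Several members varied along the main axis of the data. Over the 16 samples, the Pearson correlation of log2 CPM with the first principal component was -0.96 for Gabpa, -0.94 for Tfb2m, -0.92 for Tfam, -0.84 for Tfb1m and -0.78 for Ppargc1a. Esrra at 0.86 and Polrmt at 0.84 ran the opposite way, and Ppara, Nrf1 and Ppargc1b lay between 0.37 and 0.49. None of the 10 was among the 1000 entries used for the component. The samples differ along it in group, suffix and depth, so these values describe the samples and carry no test. Library measures differed along it too. Entries with no name took 0.247% to 0.373% of counts in libraries 1, 3, 4 and 8, the highest on the component, and 0.102% in library 15, the lowest. Of counts between 1 and 10, 52.3% to 59.5% were even in those libraries and 45.9% in library 15. The part of these measures was not tested. Within each group the samples at the high end of the component had the least Gabpa: healthy libraries 1, 3 and 4, tumor libraries 8 and 10 and chemotherapy sample 11. The part of this axis in the group differences was not tested.

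**Figure D4:**
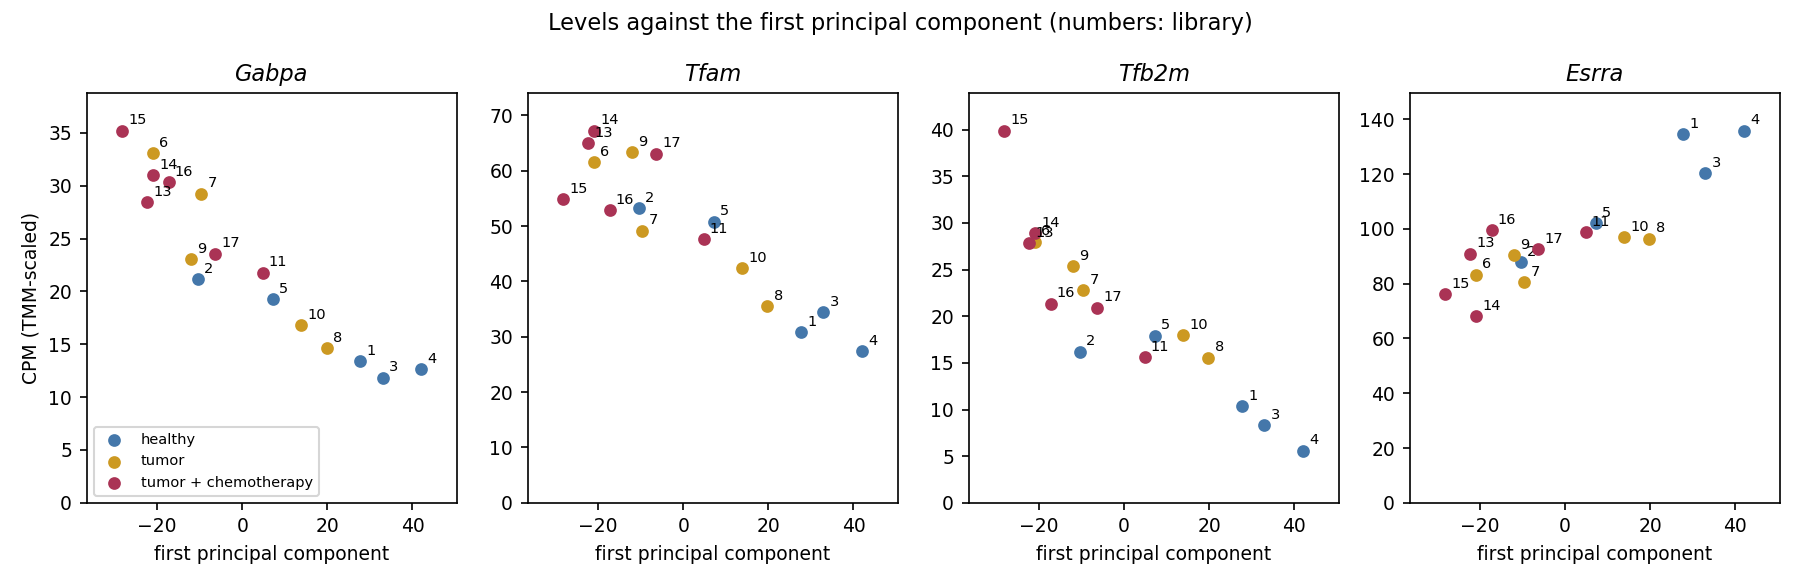
CPM of Gabpa, Tfam, Tfb2m and Esrra against the first principal component of each sample, colored by group, with library numbers. The samples highest on the component hold the least Gabpa in each group, and healthy libraries 1, 3 and 4 hold the most Esrra; these genes were drawn after their values had been seen.

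Among the members themselves, log2 CPM of Gabpa and Tfb2m correlated at 0.90 over the 16 samples, Tfam and Tfb2m at 0.88, and Gabpa and Tfam at 0.86. Esrra correlated with these 3 at -0.89 for Tfb2m, -0.84 for Gabpa and -0.82 for Tfam, and with Polrmt at 0.76. Ppargc1a correlated with Gabpa at 0.82 and with its relative Ppargc1b at -0.27. Of 8863 named candidates averaging at least 5 CPM, the profiles most like Gabpa were Nkap (0.97) and Taok1 (0.97), most like Tfam were Sugt1 (0.97) and Scfd1 (0.97), and most like Tfb2m were Cyld (0.97) and Ypel5 (0.97). Those most like Esrra were Flad1 (0.95) and Ptpa (0.95), most like Polrmt were Irf2bp1 (0.93) and Ache (0.92), most like Ppargc1a were Cbwd1 (0.92) and Zfp157 (0.92), and most like Tfb1m were Ankrd49 (0.97) and Tars3 (0.96). Ppargc1b (Ddx31, 0.85, and Hs3st1, 0.80), Nrf1 (Plekhf2, 0.83, and Mettl3, 0.77) and Ppara (Sptlc1, 0.87, and Faap100, 0.81) had looser companions. All these values share the group, suffix and depth differences of the samples.

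Several members overlap other genes on GRCr8, and the sources used here do not say whether reads were counted by strand. Gabpa overlaps Atp5pf, a subunit of the ATP synthase, whose log2 fold change in chemotherapy against healthy samples was 0.55 ± 0.20 (adjusted p = 0.0622, edgeR). Ppara overlaps Cdpf1, which was higher in chemotherapy than in healthy samples by 0.62 ± 0.19 (adjusted p = 0.0444, edgeR), opposite in sign to Ppara. In tumor against healthy samples Cdpf1 was at 0.66 ± 0.20 (adjusted p = 0.211, edgeR), and in chemotherapy against tumor samples at -0.04 ± 0.19. Esrra overlaps Trmt112 and Tfb1m overlaps Tiam2. In chemotherapy against healthy samples these stood at -0.26 ± 0.15 and -0.21 ± 0.21 (adjusted p = 0.198 and 0.471, edgeR). Tfam, Tfb2m, Polrmt and Nrf1 overlap no other gene in that annotation.

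The genes around the 10 regulators gave calls in chemotherapy against healthy samples and in neither other comparison, where 0.0% of all entries were called by edgeR. Among relatives of the coactivators and their partner receptors, 3 of 14 tested fell and 0 rose, beside 6.41% lower and 7.3% higher among all entries. They were Pprc1, the third member of the coactivator family (-0.55 ± 0.16, adjusted p = 0.0375), Ppard, the PPAR form abundant in muscle (-0.78 ± 0.23, adjusted p = 0.0364), and Hcfc1, a cofactor that bridges transcription factors and chromatin enzymes (-0.50 ± 0.15, adjusted p = 0.0408, all edgeR). The list's median was -0.17.

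Of 25 genes upstream of the coactivators, 1 rose and 2 fell, a share near that of all entries. Prkab2, a regulatory subunit of the energy sensor AMPK, rose from 140 ± 68.0 CPM in healthy to 258 ± 36.8 CPM in chemotherapy samples (0.88 ± 0.26, adjusted p = 0.0366). Tfe3 and Tfeb, factors of lysosomal and metabolic genes, fell by 0.83 and 0.53 (adjusted p = 0.0303 and 0.0375, edgeR). Of 15 repressors of the coactivators 2 fell and 0 rose, beside 6.41% lower and 7.3% higher among all entries. Mybbp1a, which binds and restrains the Ppargc1a protein, fell from 166 ± 25.0 to 107 ± 11.3 CPM (-0.63 ± 0.15, adjusted p = 0.0264, edgeR). The histone deacetylase Hdac5 fell by 0.52 ± 0.16 (adjusted p = 0.0422, edgeR). Fbxw7, a ubiquitin ligase subunit that marks the Ppargc1a protein for destruction, was at 23.9 ± 5.41 CPM in healthy and 33.5 ± 5.80 CPM in chemotherapy samples (adjusted p = 0.0606, edgeR).

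Of 19 genes that copy and maintain mitochondrial DNA, Ssbp1 alone rose and 0 fell, so that the share called was below the 13.7% of all entries. Ssbp1, which coats the single strand during copying, went from 4.41 ± 2.29 CPM in healthy to 13 ± 4.15 CPM in chemotherapy samples (1.63 ± 0.36, adjusted p = 0.0261, edgeR). Tymp, a thymidine phosphorylase, was at 10.4 ± 2.68 and 6.26 ± 2.05 CPM (adjusted p = 0.0547), and Lonp1, the protease that degrades Tfam, at 76.8 ± 19.8 and 101 ± 5.44 CPM (adjusted p = 0.0693).

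Of 25 genes for mitochondrial transcription and RNA processing, 5 rose and 2 fell, beside 7.3% higher and 6.41% lower among all entries. The list's median was 0.29. Tefm, the elongation factor of the mitochondrial polymerase, rose from 6.92 ± 1.63 to 11.7 ± 1.61 CPM (0.76 ± 0.20, adjusted p = 0.0290, edgeR). Mterf1, Slirp, Pnpt1 and Trmt10c also rose, by 1.20, 0.91, 0.83 and 0.74 on the log2 scale; they fall outside the naming rule and were picked after their values were seen. Tbrg4 and Hsd17b10, which take part in mitochondrial RNA processing, fell by 0.57 and 0.61 (adjusted p = 0.0301 and 0.0331, edgeR). Hsd17b10 and Trmt10c are subunits of the same enzyme that trims mitochondrial transfer RNA, and they moved in opposite directions.

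Of 33 nuclear genes for respiration known to be bound by Nrf1, Gabpa or Esrra, 6 rose and 5 fell, with a median of -0.01. Among all entries 7.3% were called higher and 6.41% lower. Sdhd, a membrane anchor of complex II, rose from 230 ± 62.4 CPM in healthy to 396 ± 62.0 CPM in chemotherapy samples (0.78 ± 0.20, adjusted p = 0.0290, edgeR). Mdh2, the malate dehydrogenase of the mitochondrial matrix, fell from 466 ± 52.6 to 341 ± 34.8 CPM (-0.45 ± 0.12, adjusted p = 0.0290), and Atp5mc1, a subunit of the rotor ring of the ATP synthase, fell from 678 ± 211 to 418 ± 32.3 CPM (-0.70 ± 0.19, adjusted p = 0.0302). The 13 genes encoded by mitochondrial DNA that the table lists were at 0 in every library, so the output of Tfam, Tfb2m and Polrmt could not be read from these data.

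Of 28 target genes of Ppara, Acadm alone passed, again below the 13.7% of all entries. Acadm, a dehydrogenase of medium-chain fatty acids, rose from 245 ± 102 to 485 ± 102 CPM (0.99 ± 0.26, adjusted p = 0.0296, edgeR), while Angptl4 and Ech1 did not pass (adjusted p = 0.384 and 0.0840). Of 11 fusion and fission genes 0 passed, with Dnm1l nearest (0.81 ± 0.28, adjusted p = 0.0530) and Mief2 and Mief1 at -0.33 each (adjusted p = 0.0682 and 0.0708); 6 had an unadjusted p under 0.05, beside 36.4% of all entries. Of 14 genes known as muscle output of Ppargc1a, Esm1 and the vessel growth factor Vegfa rose (1.14 ± 0.31 and 0.66 ± 0.22) and Gys1, the glycogen synthase, fell (-0.59 ± 0.15). Their adjusted p were 0.0315, 0.0485 and 0.0279 (edgeR), and among all entries 7.3% were called higher and 6.41% lower. Some of the named genes had a larger log2 fold change in tumor than in chemotherapy samples, each against healthy, though none passed there: Esm1 at 1.47 ± 0.31 (adjusted p = 0.211), Fbxw7 at 0.59 ± 0.18, Tymp at -0.82 ± 0.27, Lonp1 at 0.44 ± 0.16 and Angptl4 at -1.12 ± 0.42, beside -0.48 ± 0.39 with chemotherapy. All of the calls in these lists are lost in the settings in which the 3 members' calls are lost, since none of the entries tested passes there.

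**Figure D5:**
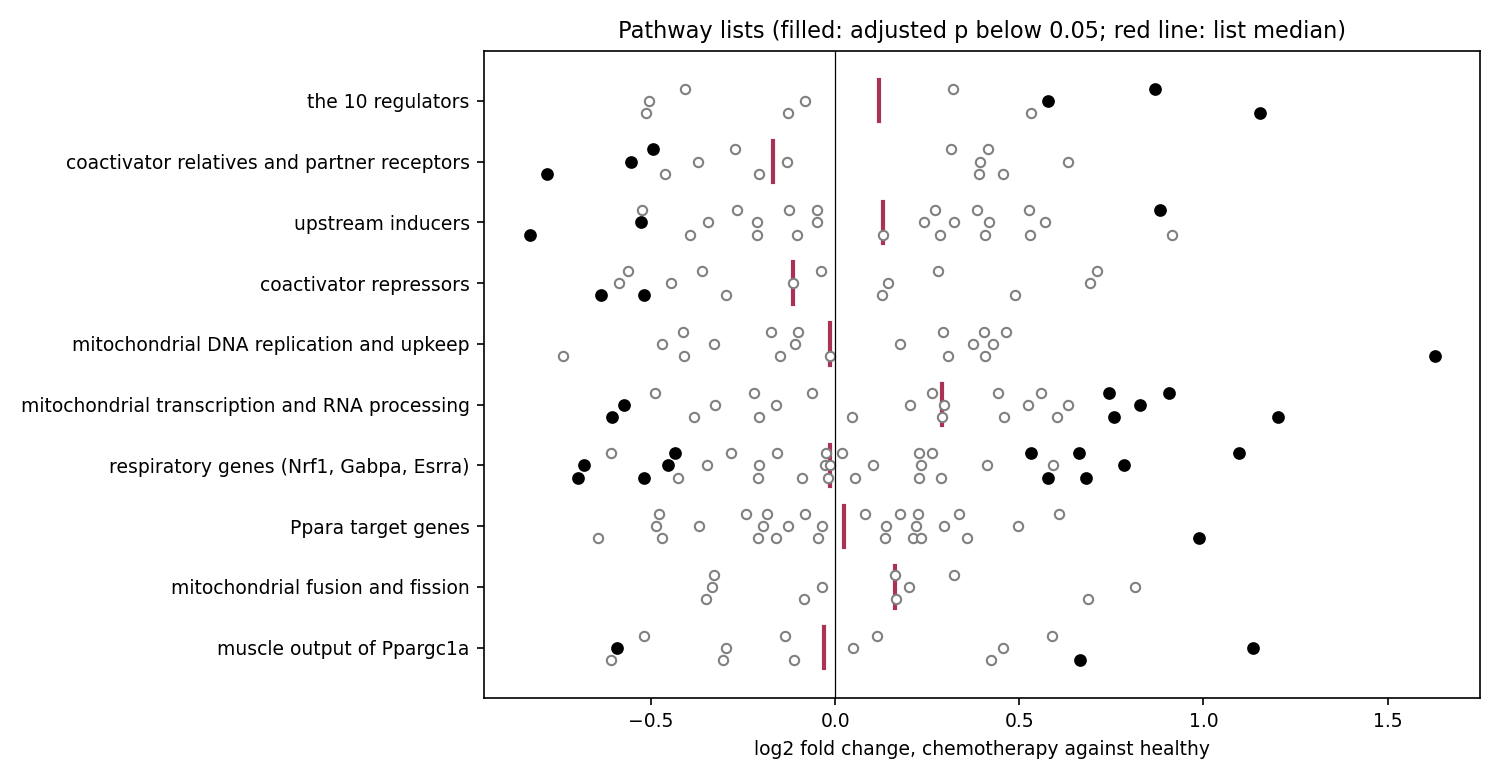
Log2 fold change of every tested gene of the 9 neighboring lists and the 10 regulators, chemotherapy against healthy; filled points passed an adjusted p of 0.05 and red lines are medians. Filled points lie on both sides of 0 for the respiratory genes (6 and 5) and for mitochondrial transcription and RNA processing (5 and 2). Among all entries 7.3% were called higher and 6.41% lower.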

How the data were processed

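Stranded libraries were made from total RNA of rat gastrocnemius after removal of ribosomal RNA, per the labels' protocols. The deposited table held raw read counts per gene, with no normalization by the authors. TopHat2 2.0.10 and Bowtie2 are among the tools listed, with Trim Galore 0.4.1, FastQC 0.11.4 and CASAVA 1.9, per the submitters' processing notes. Build, annotation and counter: not given in these sources. Entries with no name (388, or 0.102% to 0.373% of counts) were left out. Of counts between 1 and 10, 45.9% to 59.5% were even, so some fragments may be counted by both mates.

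Libraries 11 and 12, with a chi-square per degree of freedom of 2.04 between them against 5.47 for the next pair, were summed, leaving 16 samples. Entries passing filterByExpr (minimum count 10) were fitted for all 3 groups with edgeR 4.0.16 (TMM, robust quasi-likelihood, 13 residual degrees of freedom), with Benjamini-Hochberg adjustment over 11856 entries and a threshold of 0.05. SE is the log2 fold change over the square root of F. DESeq2 1.42.0, limma 3.58.1 and sva 3.50.0 served alternatives. In simulated data the test found 66% of 2-fold and 12% of 1.5-fold changes in chemotherapy against healthy samples. The simulated counts varied independently between genes, without the main axis of the real samples, so these shares may not hold for the data.

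Every member is described; each neighboring list names the 3 genes of smallest unadjusted p over the 3 comparisons, and each member the 2 best-correlated genes. Members and lists were chosen with earlier results of these data known. A surrogate variable was first computed from raw counts; the form computed from CPM was added after that result was seen. Depth limits the precision of every count, and intervals cover the spread between samples.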

Additional observations from a re-analysis of the deposited data

Results flagged for a closer look

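In 30 gene and group combinations checked for a sample far from the others, 2 were found; chance gives about 1 in 20. Ppargc1b stood at 37.23 CPM in chemotherapy library 16, far above the other 5 samples of the group at 15.83 to 21.49 CPM. Ppara stood at 6.193 CPM in tumor library 9, far below the other 4 samples at 10.35 to 11.59 CPM.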

How the results depend on the processing

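In tumor against healthy, and likewise in chemotherapy against tumor samples, 0 members were called in every setting. In chemotherapy against healthy they were 0, with 0 of all entries, with the suffix as a term, a surrogate variable from CPM, without healthy libraries 1, 3 and 4, in VM libraries only and in MB libraries only. Leaving out 1 sample gave 0 to 5 members there (5 without healthy library 2 or chemotherapy sample 11) and 0 to 3799 of all entries, 0 to 504 in tumor against healthy, and 0 to 3 in chemotherapy against tumor. With the surrogate variable from raw counts, the form run first, Gabpa, Tfam and Tfb2m passed; that variable correlated at 0.99 in size with the log of the total counts, and the one from CPM at 0.996 with the first principal component. Which of these forms to prefer was not settled by a test. All entries called in chemotherapy against healthy were 1625, 884 without a filter, 2508 with DESeq2 and 2444 with limma-voom. In tumor against healthy they were 0, 63 with DESeq2 and 1 with the surrogate variable from raw counts; in chemotherapy against tumor 0, 3 with DESeq2 and 8 with the surrogate variable from CPM. Tfam also missed the threshold with DESeq2 size factors, no filter, 2 groups only and 17 libraries (adjusted p from 0.0503 to 0.0640), and without tumor library 7, 9 or 10 or chemotherapy library 16 or 17. Scaling by total counts only moved the median of all entries by 0.12 and 0.14 against healthy, and the split to 1669 higher and 348 lower.

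Log2 fold changes that changed sign were these. In tumor against healthy: Ppargc1a -0.13 with the suffix as a term, -0.11 with the surrogate variable from CPM and -0.16 in VM libraries; Tfb1m -0.17, -0.089 and -0.22, and -0.19 without healthy libraries 1, 3 and 4; Polrmt 0.36, 0.37, 0.24 and 0.45 in that order; Nrf1 4.8e-05 with the surrogate variable and 0.024 without the 3 libraries; Tfam -0.010 in VM libraries and -0.050 without the 3 libraries. In chemotherapy against healthy: Ppargc1a -0.22 with the surrogate variable and -0.037 in VM libraries; Ppargc1b 0.17 and 0.23, 0.21 without the 3 libraries and 0.013 with total counts only; Nrf1 0.13, 0.080, 0.072 and 0.061 likewise; Tfb1m -0.16 with the surrogate variable and -0.0074 without the 3 libraries; Polrmt 0.22 and 0.069 likewise. In chemotherapy against tumor: Ppargc1a -0.11, Esrra 0.074, Tfb1m -0.068 and Tfb2m -0.11 with the surrogate variable, and Ppargc1a -0.0036 with 17 libraries. Leaving out 1 sample took Ppargc1a there from -0.085 to 0.16, Esrra from -0.070 to 0.034 and Nrf1 from -0.055 to 0.17. The cause was not tested. No paired analysis was possible because the labels give no pairing of samples between groups. The VM and MB fits were added after the data were seen.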
